A study of Mus musculus with 4 samples.

Results

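The 8-cell embryo of the mouse was set against the 2-cell embryo for the places at which RNA 5′ ends begin within repeated DNA. Both stages were taken whole, which makes 2 of the 4 samples of the series and 5 of its 11 runs. The 8-cell sample (68 h) was read in runs 1.1, 1.2 and 2 and the 2-cell sample (48 h) in runs 1 and 2. Embryos of both stages came from F1 crosses of C57BL/6J with CBA/H mice, and the labels name no treatment and no engineered allele at either stage. The 5′ ends of total RNA were profiled by nanoCAGE, a method of cap analysis for small amounts of RNA. Whether a given read start is a capped end was not tested. The number of embryos behind a sample is not given in the labels, nor is whether its runs are separate libraries, so the runs were treated as repeat runs of 1 sample. With a single sample behind each stage, differences between stages were given no p-value and no replicate error. The files list repeats and no genes, so marker genes of the stages were not read here.

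About the time of the 2-cell stage the mouse embryo starts to transcribe its own genome, and by the 8-cell stage that genome supplies most of its RNA. Retrotransposons are part of this early transcription. ERVL, the family of MERVL and its MT2 promoters, is known as a mark of the 2-cell embryo. L1, the autonomous LINE element, is transcribed through early cleavage, and MaLR (MT and ORR1) is known from the oocyte.

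The value of a repeat family is its share, the percent of all repeat counts of a run. The counts came to 48685, 80059 and 1252133 in 8-cell runs 1.1, 1.2 and 2 and to 232146 and 245473 in 2-cell runs 1 and 2. A family was said to rise or fall at the 8-cell stage where the means of the stages differed at least 2-fold and each run of one stage lay above each run of the other. 8-cell run 2 is given apart from runs 1.1 and 1.2. Its share lay outside the range of runs 1.1 and 1.2 in 40 of 47 families, was the lowest of the 5 runs in 21 and the highest in 8. Read names place the 5 runs in 4 sequencing runs, of which 8-cell run 2 and 2-cell run 2 shared one. This grouping was inferred from the most frequent instrument and flow-cell field of each run, in names whose first letters are cut off unevenly. In runs 1.1 and 1.2 a difference of stage cannot be told apart from one of sequencing run.

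Transposons made up most counts at both stages, and their classes kept similar shares in 8-cell runs 1.1 and 1.2 and in the 2-cell runs. LTR retrotransposons held 35.5% and 42.3% of counts in 8-cell runs 1.1 and 1.2 and 37.0% and 44.9% in 2-cell runs 1 and 2. LINE elements held 34.2% and 26.7% in these 8-cell runs, against 32.6% and 16.8% in the 2-cell runs. The 8-cell values of both classes lay within or near the range of the 2-cell runs, and the stage ratios of 0.950 for LTR and 1.23 for LINE were under the limit. SINE elements, which borrow the LINE machinery to move, held 22.5% and 18.9% in 8-cell runs 1.1 and 1.2 and 18.7% and 18.4% in the 2-cell runs. DNA transposons held 2.94% and 3.24%, against 3.24% and 2.06%. None of these 4 classes passed the rule in runs 1.1 and 1.2.

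**Figure D1:**
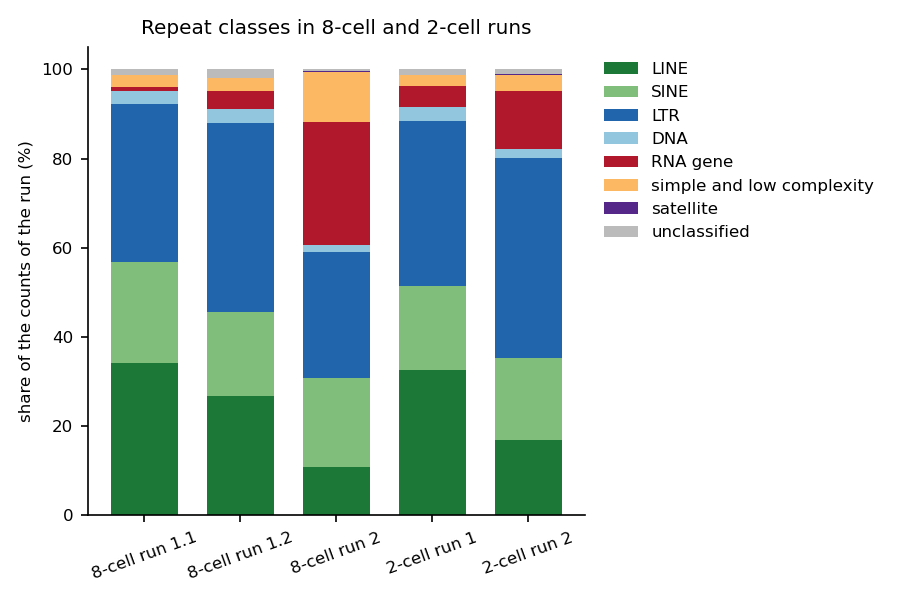
Stacked bars give the share of 8 repeat classes in the counts of each run, in percent, with the 8-cell runs left of the 2-cell runs. 8-cell run 2 shows 27.6% RNA genes and 10.9% LINE, whereas 8-cell runs 1.1 and 1.2 show 0.877% and 3.98% RNA genes and 34.2% and 26.7% LINE.

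RNA genes and satellites, the non-transposon classes of ribosomal and other structural RNAs and of satellite DNA, were lower in 8-cell runs 1.1 and 1.2. RNA genes held 0.877% and 3.98% in these runs, against 4.63% and 13.0% in the 2-cell runs, a ratio of 0.276. Satellites held 0.0370% and 0.0425%, against 0.0676% and 0.332%, a ratio of 0.199. Both fell by the rule, and both rest on 2-cell run 2: without it the ratio was 0.510 for rRNA, which makes up nearly all of the RNA gene class, and 0.587 for satellites, and neither passed.

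Among families, 3 of 47 rose (6.38% of those compared) and 5 of 47 fell (10.6%) in 8-cell runs 1.1 and 1.2. With the 34 transposon families alone as the whole, 1 rose (2.94%) and 3 fell (8.82%). Of the 31 families with at least 100 counts over the runs compared, 2 rose and 3 fell, and none of the 5 is classed as a transposon. The others that passed were TcMar, which rose, and ERVL? and TcMar?, which fell, each on at most 26 counts in a run. The median ratio of these 31 families was 1.003, and the runs of the stages overlapped in 18 of them. Runs 1.1 and 1.2 lay within 2-fold of each other in 27 of the 31 and the 2-cell runs in 17.

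The families that rose or fell with enough counts to be named were small, except for rRNA. The family listed as Unknown had 0.458% and 0.781% of counts in 8-cell runs 1.1 and 1.2, against 0.128% and 0.274% in the 2-cell runs. It rose 3.08-fold, and its pooled counts gave 3.24 (exact 95% Poisson interval 2.95 to 3.56). The family listed as Y-chromosome had 0.0924% and 0.0774%, against 0.0439% and 0.0183%, and rose 2.73-fold, or 1.93-fold without 2-cell run 2, which did not pass. The families Unknown and Genie? passed under each alternative computed for them. Genie? had 0 and 5 counts in 8-cell runs 1.1 and 1.2, against 362 and 166 in the 2-cell runs, and its pooled counts gave a ratio of 0.0351 (0.0114 to 0.0825). rRNA had 0.807% and 3.81%, against 4.53% and 12.8%, and fell to a ratio of 0.267. Such intervals reflect counting error alone. The reads were amplified and carry no molecular identifiers, so they do not each stand for a molecule.

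No LTR family with at least 100 counts passed the rule in runs 1.1 and 1.2. ERVL had 6.56% and 6.39% of counts in 8-cell runs 1.1 and 1.2, against 5.96% and 13.6% in 2-cell runs 1 and 2. The 8-cell runs thus lay just above 2-cell run 1 and below 2-cell run 2, and the ratio was 0.662 with both 2-cell runs, 0.476 without run 1 and 1.09 without run 2. The direction for ERVL therefore depends on which 2-cell run is used. ERVK, which includes the IAP elements, had 8.77% and 10.2%, against 13.4% and 13.5%, so that both 8-cell runs lay below both 2-cell runs at a ratio of 0.706. MaLR had 17.1% and 23.3%, against 15.6% and 16.5%, and ERV1 had 3.04% and 2.41%, against 1.95% and 1.29%. Both lay above both 2-cell runs, at ratios of 1.26 and 1.68. As a share of LTR counts alone, MaLR held 48.1% and 55.0% in the 8-cell runs, against 42.2% and 36.8% in the 2-cell runs, and ERVK held 24.7% and 24.1%, against 36.3% and 30.03%.

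L1 took nearly all LINE counts at both stages, 92.8% and 89.1% in 8-cell runs 1.1 and 1.2 and 92.3% and 87.4% in the 2-cell runs. Its share of all counts was 31.7% and 23.8% at the 8-cell stage and 30.1% and 14.7% at the 2-cell stage. The ranges overlap, and the 2 runs of the 2-cell stage differed more from each other than the stage means did (27.8% and 22.4%). L2, an old and immobile LINE family, had 2.26% and 2.66%, against 2.12% and 1.96%, with both 8-cell runs above at a ratio of 1.21. CR1 had 0.170% and 0.219%, against 0.306% and 0.110%. RTE had 17 and 33 counts in the 8-cell runs and 169 and 128 counts in the 2-cell runs, a ratio of shares of 0.609 with both 8-cell runs below.

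Nor did any SINE family, the main ones lying within 2-fold between stages. B4 had 9.74% and 7.93% of counts in 8-cell runs 1.1 and 1.2, against 7.19% and 5.92%, a ratio of 1.35 with both 8-cell runs above. B1, listed under the primate name Alu, had 3.01% and 2.76%, against 3.64% and 4.50%, a ratio of 0.708 with both below. B2 had 7.44% and 6.06%, against 5.33% and 6.13%, and its runs overlapped. MIR, an ancient SINE family, had 1.62% and 1.27%, against 1.88% and 1.13%, and ID, a family derived from a small cytoplasmic RNA, had 0.666% and 0.878%, against 0.612% and 0.715%. As a share of transposon counts, B4 held 10.2% and 8.69% in the 8-cell runs, against 7.86% and 7.21% in the 2-cell runs.

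DNA transposons, which no longer move in the mouse, were dominated by MER1_type, with 1.90% and 1.78% in 8-cell runs 1.1 and 1.2, against 2.19% and 1.41%. MER2_type had 0.766% and 1.21%, against 0.697% and 0.433%, a ratio of 1.75 with both 8-cell runs above. Tip100 had 0.121% and 0.125%, against 0.173% and 0.0729%. Mariner had 12 counts in the pooled 8-cell runs and 64 in the pooled 2-cell runs, with a ratio of shares of 0.802.

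Outside the transposons, simple repeats had 2.07% and 2.42% in 8-cell runs 1.1 and 1.2, against 1.99% and 2.49%, a ratio of 1.003. Low-complexity sequence had 0.633% and 0.413%, against 0.507% and 1.003%. Transfer RNA had 12 and 35 counts in the 8-cell runs, against 58 and 351 in the 2-cell runs, or 0.0246% and 0.0437% of counts, against 0.0250% and 0.143%. Its 8-cell runs overlapped with 2-cell run 1, and the ratio of 0.407 did not pass. The families of small cytoplasmic RNA, small nuclear RNA and signal recognition particle RNA had 61, 19 and 12 counts in the pooled 8-cell runs, against 131, 32 and 66 in the pooled 2-cell runs, and runs of the stages overlapped in each.

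**Figure D2:**
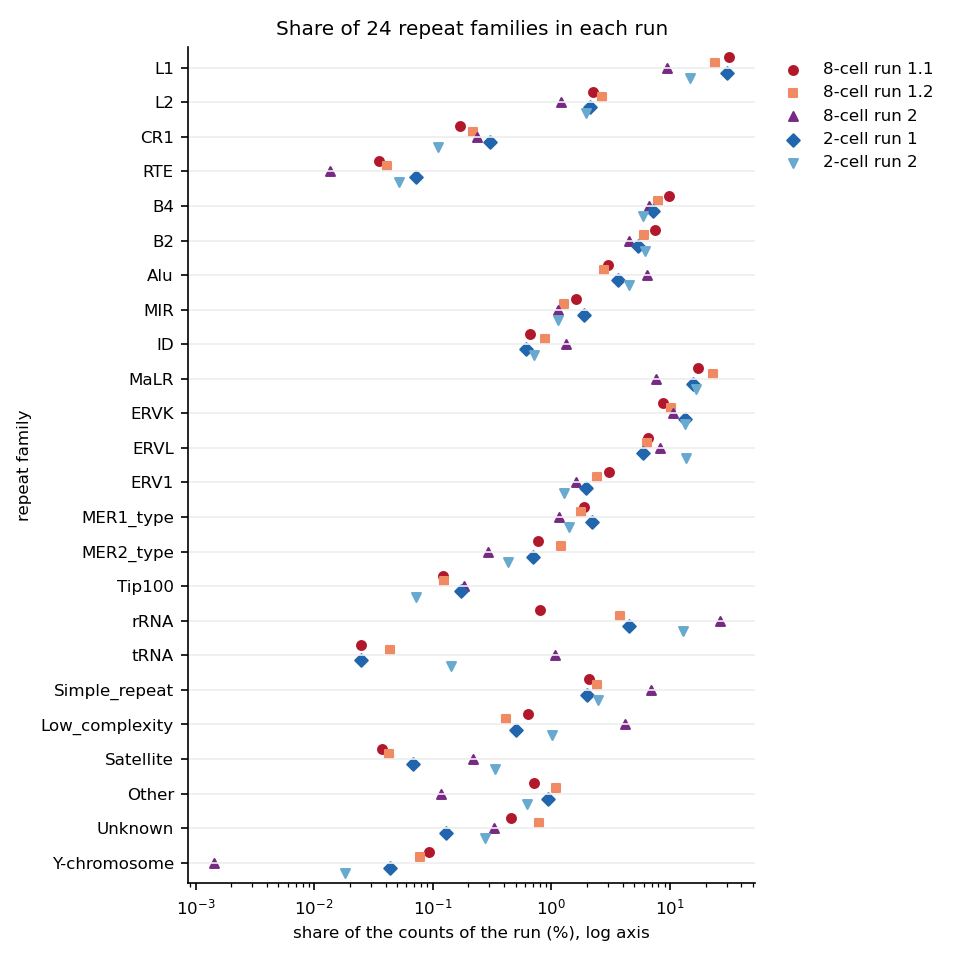
Each mark is the share of a repeat family in the counts of 1 run, in percent on a log axis, for 24 families ordered by class, with marks of 8-cell runs above those of 2-cell runs in each row. The marks of 8-cell runs 1.1 and 1.2 lie close to those of the 2-cell runs in most rows, and 8-cell run 2 (triangles pointing up) lies apart, at 26.5% for rRNA and 0.00144% for Y-chromosome.

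8-cell run 2 gave another picture of families. In it 6 of 47 families rose over the 2-cell runs (12.8%) and 22 fell (46.8%), and among transposon families alone 4 of 34 rose (11.8%) and 15 fell (44.1%). Scaled by size factors, 9 rose and 17 fell. Over the 33 families with at least 100 counts the median log2 ratio was -0.35 for shares of the run total and 0.28 with size factors, so that a direction in this run holds only relative to the scaling. Comparisons of run 2 and of runs 1.1 and 1.2 use the same 2-cell runs, and their values stand side by side here with no overlap counted between them.

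Ribosomal and transfer RNA, simple repeats and low-complexity sequence rose in 8-cell run 2. rRNA held 26.5% of its counts, against 4.53% and 12.8% in the 2-cell runs, a rise of 3.07-fold, where runs 1.1 and 1.2 had a ratio of 0.267. Transfer RNA held 1.07%, against 0.0250% and 0.143%, and rose 12.7-fold, or 7.49-fold against 2-cell run 2 alone. Low-complexity sequence held 4.18%, against 0.507% and 1.003% (5.53-fold), and simple repeats held 6.87%, against 1.99% and 2.49% (3.07-fold). These 4 passed with every scaling and left-out run tried for them. ID rose to 1.33%, against 0.612% and 0.715% (2.01-fold), but reached 1.86-fold against 2-cell run 2 alone and did not pass there.

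L1 and MaLR fell in 8-cell run 2 as shares of the run and did not pass as shares of transposons. L1 had 9.47% of its counts, against 30.1% and 14.7% in the 2-cell runs (ratio 0.423), and 15.6% of its transposon counts, against 32.9% and 17.9% (0.615, not passed). MaLR had 7.62%, against 15.6% and 16.5% (0.475), and 12.6% of transposon counts, against 17.0% and 20.1% (0.677, not passed). ERVL had 8.29%, against 5.96% and 13.6%, and 13.7% of transposon counts, against 6.505% and 16.5%. ERVK had 10.5%, against 13.4% and 13.5% (ratio 0.783), and 17.4% of transposon counts, against 14.7% and 16.4%, so that the directions of ERVL and ERVK turned with the denominator. B1 had 6.37%, against 3.64% and 4.50%, and as a share of transposon counts it rose 2.22-fold, to 10.5% against 3.97% and 5.47%, but reached 1.92-fold against 2-cell run 2 alone and did not pass there.

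Smaller families passed in 8-cell run 2 as well. Y-chromosome had 18 counts in it, against 102 and 45 in the 2-cell runs, and fell 21.7-fold. Genie? had 48 counts, against 362 and 166, with a ratio of shares of 0.0343. Other, an unclassified group, had 0.118%, against 0.933% and 0.629% (0.152), and RTE had 0.0135%, against 0.0728% and 0.0521% (0.216). The DNA transposon families AcHobo and hAT had ratios of 0.225 and 0.358 (hAT 0.580 against 2-cell run 2 alone and 0.522 as a share of transposon counts, neither passed), the unassigned SINE family 0.108 and signal recognition particle RNA 0.227. MuDR, another DNA transposon family, had 356 counts, against 13 and 12, and rose 5.42-fold.

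Within the sequencing run that 8-cell run 2 shares with 2-cell run 2, the ratio of the 8-cell run to the 2-cell run was 0.643 for L1, 0.462 for MaLR, 0.609 for ERVL and 0.782 for ERVK. It was 1.11 for B4, 2.08 for rRNA, 4.17 for low-complexity sequence and 0.0784 for Y-chromosome. In this pair, 7 of 47 families lay at least 2-fold higher and 18 at least 2-fold lower in the 8-cell run.

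Positions were read from the placements of single reads, called lines here. Each line gives the chromosome, strand and score of a 25-base read on the mm9 genome, and starts at most 20 bp apart on a strand were joined into clusters over all runs of the series. There were 51434, 82454 and 1155992 lines in 8-cell runs 1.1, 1.2 and 2 and 236980 and 211961 lines in 2-cell runs 1 and 2. Clusters whose stage means averaged at least 0.02% of lines were compared by the same rule as families. Which gene or repeat holds a cluster was not looked up, since the annotation at hand is of another build, so clusters carry coordinates and no names. How a 25-base read that fits several repeat copies was placed is not stated. A rise, a fall or an absence at a cluster is therefore one of placed reads, and use of that genomic copy was not tested.

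Single start sites often differed between 8-cell runs 1.1 and 1.2 and the 2-cell runs. In 8-cell runs 1.1 and 1.2, 129 of 376 clusters rose (34.3%) and 62 fell (16.5%), with runs of the stages overlapping in 172 of the 185 others. Of those that rose, 53 did so at least 10-fold, of which 5 had no 2-cell line and count by the bound that 3 lines give, and 7 held at least 1% of lines on average. Of those that fell, 25 did so at least 10-fold, of which 9 had no 8-cell line and count by their bound, and 3 held at least 1% of 2-cell lines. A cluster with no line at one stage met the minimum share through the other stage alone, so the direction of any call was fixed by that filter. Of 29 clusters with no line in 8-cell runs 1.1 and 1.2, 9 were called lower and 20 were not called. Without 2-cell run 1, which also changes the clusters that reach the minimum share, the rule called 151 higher and 142 lower. With all 3 8-cell runs it called far fewer clusters higher than lower, as given in the closing section.

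The strongest start site of 8-cell runs 1.1 and 1.2 was chr15:91709982-91710001 on the minus strand. It took 3.82% and 4.02% of lines in these runs, against 0.917% and 1.04% in the 2-cell runs, and rose 4.01-fold. In 8-cell run 2 it took 0.0807%. chr14:64232396-64232408 (minus) took 2.63% and 1.55%, against 0.413% and 0.451%, and rose 4.83-fold, with 0.0367% in 8-cell run 2. chr17:83547219-83547225 (minus) took 2.49% and 1.35%, against 0.0882% and 0.140%, and rose 16.8-fold, with 0.0201% in 8-cell run 2. At these 3 sites the runs compared lay within 2-fold of each other inside each stage. That runs 1.1 and 1.2 lay above both 2-cell runs is set by the rule, whereas 8-cell run 2 lay below both.

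Other sites that rose had few or no lines in the 2-cell runs. chr5:70672112-70672118 (plus) took 1.15% and 1.27% of lines in 8-cell runs 1.1 and 1.2, or 591 and 1047 lines, against 4 and 2 lines in the 2-cell runs. Pooled lines gave a ratio of 915, with an exact 95% Poisson interval from 420 to 2498. The site had the largest ratio among those that rose, and the interval covers counting error alone, not that choice. 8-cell run 2 had 0 of its 1155992 lines there, where 3 lines would be 0.000260%. chr2:11311370-11311375 (plus) took 318 and 1161 lines, against 7 and 11 in the 2-cell runs and 1 line in 8-cell run 2, a pooled ratio of 276 (174 to 466). chrX:70927089-70927097 (minus), with a median score of 16, had 156 and 18 lines, against no line in either 2-cell run. Its mean share in 8-cell runs 1.1 and 1.2 was 243 times the share of 3 lines over both 2-cell runs. Its pooled ratio had a lower exact 95% Poisson limit of 156.5. By the rule a site that rose has lines in both 8-cell runs 1.1 and 1.2, but the levels were often unlike. These 8-cell runs lay within 2-fold of each other at only 56 of the 129 sites that rose, and the 2-cell runs at 68. Among the 185 not called, these numbers were 74 and 50. chr19:57616158-57616163 (plus) took 0.305% and 3.07%, against 0.00211% and 0.156%, with 0.00649% in 8-cell run 2. chrX:16922091-16922097 (plus) took 2.14% in 8-cell run 1.1 and 0.0182% in run 1.2, against 0.0996% and 0.00708%, and did not pass, since run 1.2 lay within the 2-cell range.

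Other strong sites held many lines at both stages. chr8:106314888-106314898 (plus) took 1.97% and 5.20% of lines in 8-cell runs 1.1 and 1.2 and 3.08% and 4.63% in the 2-cell runs, a ratio of 0.930 with overlapping runs. 8-cell run 2 had 0.0671% there, 57.4-fold below the 2-cell mean. chr2:77000448-77000458 (minus) took 1.67% and 2.28%, against 1.33% and 0.262%, and rose 2.49-fold, with 0.0506% in 8-cell run 2.

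Sites that fell included strong starts of the 2-cell embryo. chr11:86272576-86272587 (plus) took 0.144% and 1.095% of lines in 8-cell runs 1.1 and 1.2, against 3.996% and 2.06% in the 2-cell runs, a 4.88-fold fall. chrX:6915852-6915863 (plus) took 0.0486% and 0.261%, against 0.311% and 2.99%, a 10.7-fold fall. chr3:124109888-124109892 (minus) had 3 and 9 lines, against 457 and 2655, and fell 86.3-fold by the means of shares. chr1:31151979-31151985 (plus) had no line in either 8-cell run, against 362 and 165 in the 2-cell runs, at least 51.5-fold lower with 3 lines over both 8-cell runs as the limit. The fall of the broad cluster chr17:39984050-39985168 (minus), at 0.194% and 1.35%, against 1.36% and 5.36%, ended when lines of a score under 20 were left out, and its ratio was 1.31 with a score of at least 40.

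**Figure D3:**
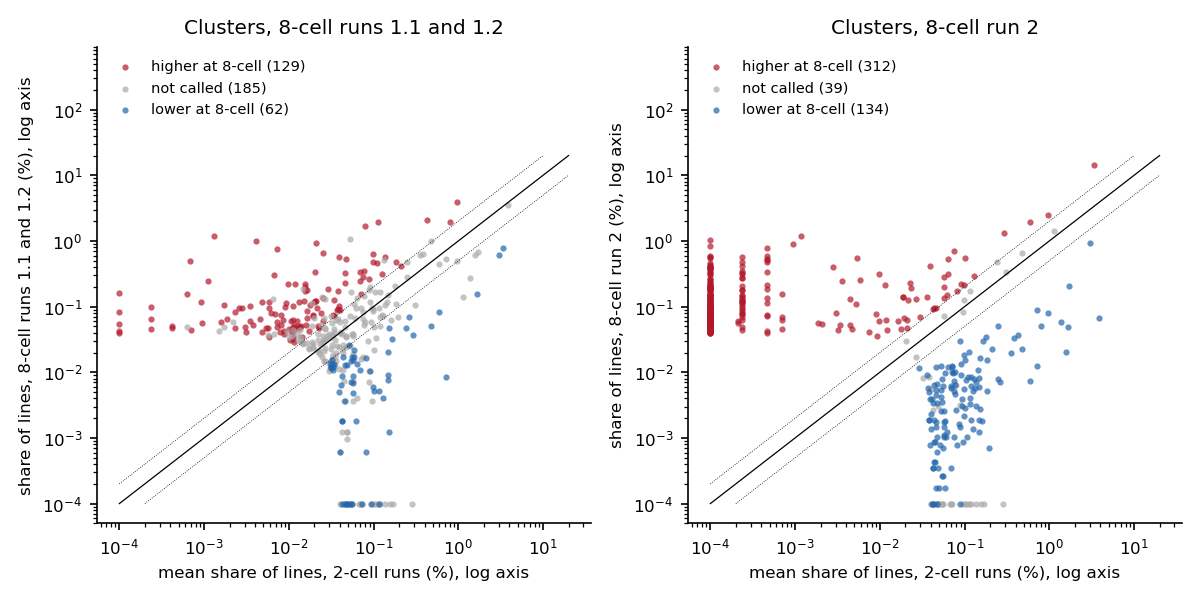
Each point is a cluster of read starts, with its mean share of lines in the 2-cell runs on the x axis and its share in 8-cell runs 1.1 and 1.2 (left, mean) or in 8-cell run 2 (right) on the y axis, in percent on log axes, with values under 0.0001% drawn at that value. The solid line marks equal shares and the dotted lines a 2-fold difference; points called higher number 129 on the left and 312 on the right, and points called lower number 62 and 134.

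The clusters chosen this way were then measured in runs that the choice did not use. The 129 clusters that rose held 33.4% and 30.9% of lines in 8-cell runs 1.1 and 1.2 and 6.07% and 4.40% in the 2-cell runs, sums that the choice itself fixes. In 8-cell run 2 they held 0.503%, in the oocyte runs 0.0113% to 0.132% and in the blastocyst runs 1.04% to 4.39%. The 62 clusters that fell held 0.840% and 3.85% in 8-cell runs 1.1 and 1.2, against 10.1% and 18.4% in the 2-cell runs, and 22.7% in 8-cell run 2. They held 9.996% to 28.6% in the oocyte runs and 2.41% to 8.18% in the blastocyst runs. The broad cluster chr17:39984050-39985168 made up 14.1% of the lines of 8-cell run 2, and without it, a choice made after seeing the data, the other 61 clusters that fell held 0.645% and 2.50% in 8-cell runs 1.1 and 1.2, 8.53% in 8-cell run 2, and 8.78% and 13.1% in the 2-cell runs. Without the broad cluster the oocyte runs held 2.16% to 20.8% and the blastocyst runs 1.44% to 3.61%. Of the clusters that rose, 61 of 129 (47.3%) had no line in any oocyte run, against 221 of all 376 compared (58.8%), and 19 (14.7%) had none in any blastocyst run, against 114 of 376 (30.3%).

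Clusters that rose were narrow and spread over the genome, as were most of the 376 compared. Those that rose had a median width of 9 bp with a longest of 20 bp. They lay on 20 chromosomes, 56 on the plus and 73 on the minus strand. All 376 had a median width of 8 bp, with 16 wider than 100 bp. They lay on 21 chromosomes, 189 on the plus and 187 on the minus strand. Those that fell had a median width of 7.5 bp, but 11 of the 62 were wider than 100 bp and the widest had 1119 bp. Over all lines, chromosome 15 had 7.05% and 6.93% in 8-cell runs 1.1 and 1.2, against 3.66% and 3.25% in the 2-cell runs, a ratio of 2.02, and the site named above took 3.82% and 4.02% of all lines in these 8-cell runs.

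Some start sites faced each other. Among the 376 clusters compared, 9 pairs lay on opposite strands within 100 bp, and at several of them the strands had unlike values. At chr7:87852645-87852657 (plus) 1.53% and 0.502% of lines started in 8-cell runs 1.1 and 1.2, against 0.865% and 0.0939% in the 2-cell runs. At chr7:87852670-87852675 (minus), 12 bp away, 0.0272% and 0.112% started, against 0.384% and 0.00377%. The ratios were 2.11 and 0.358, with overlapping runs on both strands. At chr7:145845282-145845301 (minus), 0.371% and 0.469% started, against 0.351% and 0.0694%, a rise of 2.00-fold, whereas the plus-strand cluster at chr7:145845261-145845275 had 0.0156% and 0.122%, against 0.189% and 0.0495%.

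Many strong start sites of 8-cell run 2 had no line in other runs. In it 312 of 485 clusters rose over the 2-cell runs (64.3%) and 134 fell (27.6%). Of the 312, 207 had no line in either 2-cell run. These met the minimum share through run 2 alone, which fixed their call, and they held 25.2% of the lines of run 2. In 8-cell runs 1.1 and 1.2, which the choice did not use, 202 of them had no line either. chr12:19703825-19703830 (plus) took 1.05% of run 2, or 12100 lines, and had no line in any of the other 10 runs of the series. chr19:3866486-3866522 (minus) took 0.838%, or 9692 lines, also with none elsewhere. chrY:2550283-2550286 (minus) took 1.21% of run 2, against no line in 2-cell run 1 and 5 lines in run 2 of that stage. Mitochondrial placements came to 1.90% of lines in 8-cell run 2, 0.00972% and 0.0364% in 8-cell runs 1.1 and 1.2, and 0.0232% and 0.302% in the 2-cell runs.

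Sites strong in one run and absent from the other 10 were counted for each run. At a share of at least 0.02%, 8-cell run 2 had 379 such clusters of 562, with 27.4% of its lines, and 2-cell run 2 had 160 of 467, with 7.64% of its lines. 8-cell runs 1.1 and 1.2 had 12 of 398 and 2 of 383, and 2-cell run 1 had 14 of 360. Both runs with many such clusters are those of the shared sequencing run.

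The overlap of a pair of runs was the sum, over clusters, of whichever share was smaller. It was taken after each run had been thinned to 51434 lines. The overlap came to 42.5% between 8-cell runs 1.1 and 1.2 and 27.1% between the 2-cell runs. Across stages, 8-cell run 1.1 overlapped by 25.1% with 2-cell run 1 and by 17.8% with run 2, and 8-cell run 1.2 by 32.5% and 28.0%. The mean of these 4 pairs was 25.8%, close to the value within the 2-cell stage. 8-cell run 2 overlapped by 3.03% and 7.15% with 8-cell runs 1.1 and 1.2 and by 8.08% and 17.6% with 2-cell runs 1 and 2, so that its closest run was 2-cell run 2.

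**Figure D4:**
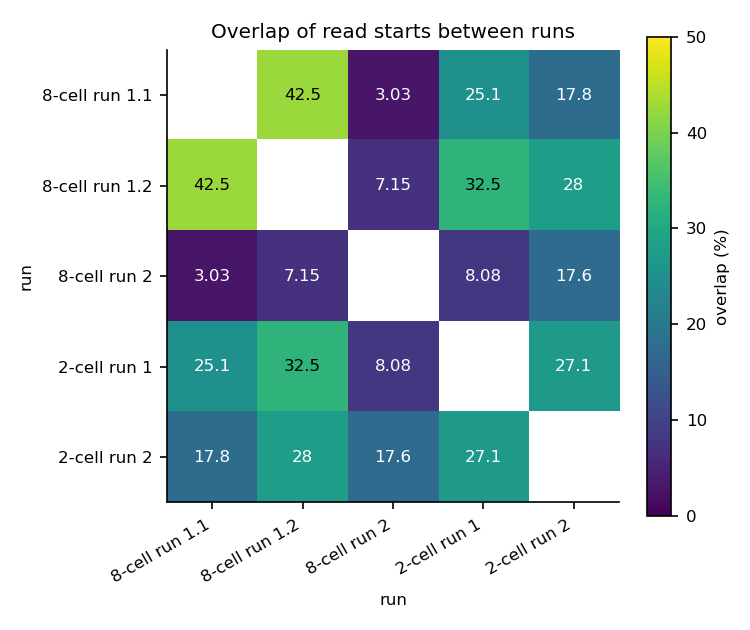
Each cell gives the overlap of read starts between 2 runs in percent, as the summed smaller share of each cluster after thinning to 51434 lines a run, with 8-cell runs above and left of 2-cell runs. The cell of 8-cell runs 1.1 and 1.2 is highest at 42.5%, and the row of 8-cell run 2 stays at or below 17.6%.

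Strong sites of one run were found unevenly in the others. The 100 strongest clusters of 8-cell run 1.1 held 43.7% of its own lines, 40.5% of those of run 1.2, 18.6% of run 2, and 25.7% and 23.996% of the 2-cell runs, and 97 and 95 of them were seen in 2-cell runs 1 and 2. The 100 strongest of 8-cell run 2 held 54.2% of its own lines and 1.25% and 5.07% of those of 8-cell runs 1.1 and 1.2, where 20 and 31 of them were seen. The 100 strongest of 2-cell run 1 held 28.2% and 32.9% of lines in 8-cell runs 1.1 and 1.2, against 32.5% in that run itself.

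In clusters with at least 20 lines in both runs of a pair, the most used start was the same base in 51.6% to 71.0% of clusters over the 10 pairs. Between 8-cell runs 1.1 and 1.2 it was the same base in 85 of 136 clusters (62.5%), and between 8-cell run 1.2 and 2-cell run 2 in 138 of 201 (68.7%). The most used start held a median of 68.2%, 65.3% and 80.9% of the lines of a cluster in 8-cell runs 1.1, 1.2 and 2, against 65.2% and 82.9% in 2-cell runs 1 and 2. It was higher in the 2 runs of the shared sequencing run, which are also those with the highest median scores, and the cause was not tested.

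The strand of read placement was uneven by lines and close to even by positions. Plus-strand lines made up 45.3%, 49.0% and 42.2% of 8-cell runs 1.1, 1.2 and 2 and 54.8% and 52.1% of 2-cell runs 1 and 2, and each run lay outside the counting interval of the others. With each start position counted once, the shares were 49.4%, 49.6% and 49.8% at the 8-cell stage and 49.8% and 49.9% at the 2-cell stage. Without the 100 strongest clusters of each run they were 49.5% to 51.0% over the 5 runs.

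Scores of placements, deposited by the authors without a stated scale, differed within a stage as much as between stages. Their median was 16, 28 and 54 in 8-cell runs 1.1, 1.2 and 2 and 24 and 43 in 2-cell runs 1 and 2. A score of at least 40 was given to 0.259%, 16.9% and 57.3% of lines in the 8-cell runs and to 3.51% and 50.7% in the 2-cell runs. In 8-cell run 1.1 this left 133 lines, of which each is worth 0.752%, and at that minimum the rule called 35 clusters higher and 44 lower, in place of 129 and 62. With a score of at least 20 it called 139 and 69. Under a minimum of 40 chr15:91709982-91710001 had a ratio of 1.2 and did not pass. In 8-cell run 2 the clusters that rose and had no 2-cell line had a median score of 79, and those with a 2-cell line 52. The part of the score in the differences between runs was not tested.

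**Figure D5:**
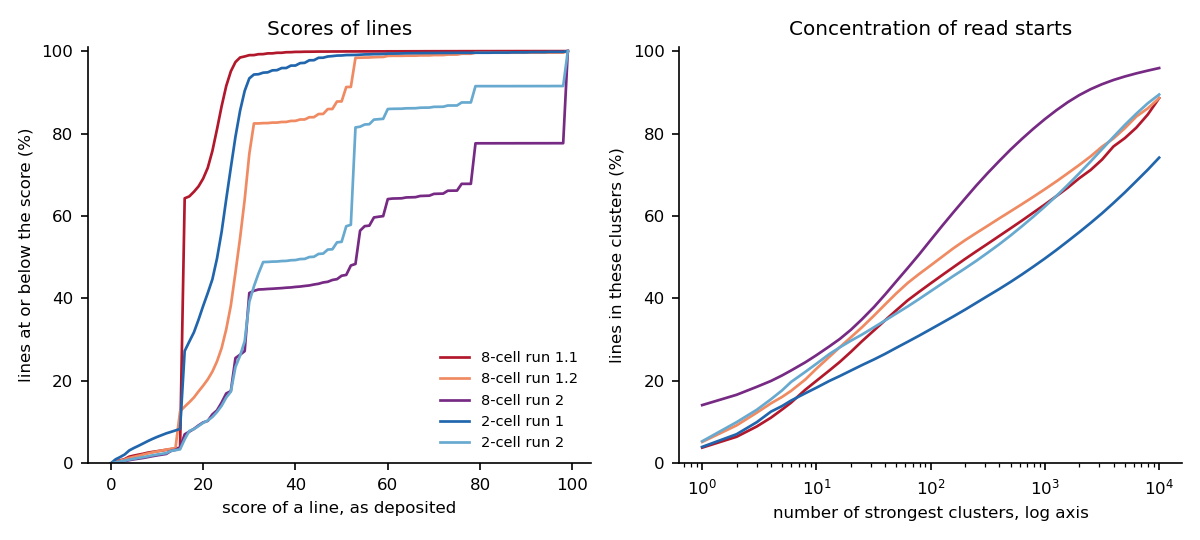
The left panel gives the percent of lines at or below each deposited score, and the right panel the percent of lines held by the strongest clusters of a run, with the number of clusters on a log axis. The curves of 8-cell run 2 and 2-cell run 2 lie to the right in the left panel, and 8-cell run 2 is most concentrated, with 54.2% of lines in 100 clusters.

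Read starts were concentrated at both stages. The 10 strongest clusters took 20.02%, 23.0% and 26.2% of lines in 8-cell runs 1.1, 1.2 and 2 and 18.4% and 24.2% in 2-cell runs 1 and 2. The 100 strongest took 43.7%, 48.0% and 54.2%, against 32.5% and 41.8%. Each distinct start carried 2.70, 3.46 and 17.8 lines on average in the 8-cell runs, against 3.42 and 5.86 in the 2-cell runs. At 51434 lines a run there were 15862, 13896 and 6555 clusters in the 8-cell runs, against 20020 and 12795 in the 2-cell runs. At this equal depth 8-cell run 2 had the fewest clusters. The lines on each distinct start were taken at full depth, which was greatest in that run.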

How the data were processed

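The count table deposited by the authors holds whole read counts of 47 repeat families, 1 column a run per the file headers, and the rule that assigned reads to families is not given in the sources used here. Placements of 25-base reads, in 1 file a run, come with a score deposited by the authors, whose scale is not stated. Per the submitters' processing notes, the build was mm9 and CASAVA was used. Counts were divided by the run total, or by the 34 LINE, SINE, LTR and DNA families, whose classes were assigned by hand from repeat names. Stage values are means of runs with equal weight.

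Read starts are the first base of a read, 1-based. Starts on a strand at most 20 bp apart over 11 runs formed clusters, and 376 and 485 with a mean share of at least 0.02% were compared. Exact repeats, 2.31% to 4.34% of lines in the 5 runs, were kept. Thinning used a fixed seed. Counts per line in the table and read files ran from 0.947 to 1.16, so both sources differ in their number of reads. Counting intervals are exact and cover 95%. Their width follows the depth of a run, and 3 lines make 0.00583% of 8-cell run 1.1 and 0.000260% of 8-cell run 2. The design planned no significance test, since each stage is 1 sample.

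Families are named if called with at least 100 counts, or if on a list of main families, of which centr is not in the table. Clusters are named if among the 10 strongest of a stage or the 10 with the largest ratio in a direction. The pairs of facing clusters on chromosome 7 were chosen after their values were seen. The members, lists and tests were chosen with earlier results of these data known. The rule was tried on simulated counts that held counting error only and no other differences between runs of a stage. That trial cannot show how often such differences lead to a call. Python 3.11.15, pandas 2.3.3, numpy 2.4.6, scipy 1.17.1 and matplotlib 3.10.9 were used.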

Additional observations from a re-analysis of the deposited data

How the results depend on the processing

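The number of families called in 8-cell runs 1.1 and 1.2 over 2-cell was 8. It was 4 with transposon families as the whole, 5 with at least 100 counts, 5 with all 3 8-cell runs and 17 with counts pooled over runs, and 11 to 18 with a run left out (15 without 8-cell run 1.1, 15 without 8-cell run 1.2, 18 without 2-cell run 1), where fewer runs have to separate. For 8-cell run 2 it was 28, 16 with at least 100 counts and 26 to 33 with a 2-cell run left out, where the 26 include 1 family with 2 counts against 0. Clusters called in 8-cell runs 1.1 and 1.2 were 191. They were 79 with a score of at least 40, 51 with each start position once, 341 and 88 with minimum shares of 0.01% and 0.05%, 48 with all 3 8-cell runs (1 higher, 47 lower), and 213 to 293 with a run left out. Clusters called in 8-cell run 2 were 446, and 30 with each start position once, 817 and 194 with the 2 minimum shares, and 476 to 491 with a 2-cell run left out. The other alternatives for these 4 counts stayed within 1.5 times. With all 3 8-cell runs the ratio of rRNA was 1.2, in place of 0.267. With a score of at least 40 the ratio of chr17:39984050-39985168 in runs 1.1 and 1.2 was 1.31, in place of 0.230, and that of chr17:39983301-39983671 in run 2 was 0.511, in place of 2.58. The cause was not tested. The mean overlap of 8-cell runs 1.1 and 1.2 with the 2-cell runs was 25.8%, and 23.4% with a score of at least 20. Depth limits sites in 8-cell run 1.1, where 1 line is 0.00194%. No paired analysis was possible because each stage is 1 sample.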
